A study of Mus musculus with 15 samples.

Results

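Akkermansia, Mucispirillum and Helicobacter are bacterial genera that live in or close to the mucus layer of the gut. Their members were all amplicon sequence variants (distinct 16S rRNA gene sequences, each standing for a strain or a set of close relatives) that carried one of these 3 genus names and had at least 1 count in 15 mouse stool libraries. These were 11 of the 507 variants with counts, 1 of Akkermansia, 3 of Mucispirillum and 7 of Helicobacter, and they held 242461 of 1403011 counts (17.3%). Within each genus the variants are numbered here by their total count.

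The mice were littermates that lacked Gpr15l, the gene of a chemoattractant peptide of mucosal surfaces, and all groups shared this genotype. Acute colitis was induced with dextran sulfate sodium (DSS), a sulfated polysaccharide that injures the colonic epithelium, and the mice received human GPR15L, made as a recombinant peptide, or placebo (phosphate-buffered saline, PBS) rectally once a day, from day 3 until day 9. Before DSS, libraries 1 to 3 belonged to the GPR15L arm and libraries 4 to 6 to the PBS arm; after DSS, libraries 8 to 11 belonged to the GPR15L arm and libraries 12 to 15 to the PBS arm, each from a mouse with its own number. Library 7, of the PBS arm, bears a title of after DSS and a library name from the series of those taken before DSS. Its values are therefore given apart, and comparisons leave it out unless stated. Where it is counted as titled, it stands as PBS after DSS. The titles call the mice Gpr15-/- where the series text has Gpr15l, and the labels list males where the text speaks of both sexes; age was not given in the sources used here.

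Several limits apply to all results. The libraries before and after DSS carry different mouse numbers, so no mouse can be followed. These numbers equal the running numbers in the titles, and whether a mouse was sampled at both times cannot be told from them. Library names fall into 1 series for each time point, so the DSS course and a batch of libraries cannot be told apart. Cages held 3 to 4 mice and no library's cage is given, so cage and arm cannot be told apart. Values are shares of a library's counts, in which fewer bacteria of 1 kind and more of the others cannot be told apart. Total counts lay between 48847 and 197433 per library. Library 6 (PBS before DSS) stood apart with 48.0% of its counts in these 3 genera, against 2.98% to 29.8% in the other 13 libraries compared.

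Akkermansia degrades mucin, the glycoprotein of mucus, and feeds on its sugars. Mucispirillum is a spiral bacterium of the rodent mucus layer that respires nitrate and does not itself depend on breaking down mucin. Helicobacter species of the mouse intestine are motile spiral bacteria that swim in mucus and colonise the crypts, and some of them can provoke colitis in mice with immune defects. None of these traits was measured here, and a 16S rRNA fragment does not tell species with certainty.

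Akkermansia was found in every library of 1 group and in none of the other 3. After DSS in the GPR15L arm it made up 0.0734%, 0.181%, 0.721% and 0.273% of counts in libraries 8 to 11, from 106, 124, 452 and 146 counts, all of a single variant. It had no count in the 3 libraries of either arm before DSS or in the 4 PBS libraries after DSS, which allows group shares of up to 0.000912% (GPR15L before), 0.000872% (PBS before) and 0.00128% (PBS after). These limits, and all intervals here, cover counting error only, since no molecular tags on the PCR copies are described. Library 7 held 3 counts, 0.00179% of its total (95% Wilson interval 0.000610% to 0.00527%).

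The mean after DSS in the GPR15L arm was 0.312% ± 0.284 (SD, n = 4) and was 0.176% without library 10. The mean of 0.312% was 243-fold the limit of the PBS arm after DSS and 342-fold that of the GPR15L arm before DSS. Each limit is 3 counts over the summed total of the group. It bounds the group at 0 only, and library 10 raised the mean. Akkermansia passed the filter on low counts through these 4 libraries alone and is set against groups at 0, so its p-values are given as a description and not as support. edgeR's quasi-likelihood test on counts per genus, with Benjamini-Hochberg adjustment over the 78 genera tested, gave adjusted p = 0.0115 between the arms and 0.0217 over DSS within the GPR15L arm. With library 7 counted as titled the difference between the arms gave edgeR adjusted p = 0.00725 (between 9.20e-07 and 0.0494 under the other alternatives). The call over DSS was lost when any of libraries 1, 2, 3, 8, 9, 10 or 11 was left out, with edgeR adjusted p between 0.0528 and 0.0775. As a test of a single share, a two-sided exact permutation test of log2(percent + 0.01) gave p = 0.0286 for both comparisons, the smallest that 4 against 4 or 4 against 3 libraries can give, and 0.143 after adjustment over 10 tests.

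Akkermansia was the 1 genus of the 3 that was called in any comparison, and since it passed the filter only through the group where it was high, the counts of genera describe and support nothing. Between the arms after DSS, 1 of the 3 genera was called higher and none lower, beside 3.85% higher and 14.1% in either direction among all 78 genera. Over DSS in the GPR15L arm 1 of 3 was called higher, beside 2.56% higher and 10.3% in either direction among all genera. No genus of the 3 was called before DSS, over DSS in the PBS arm or in the interaction of arm and time (the difference between the changes over DSS of the arms), where 0%, 5.13% and 3.85% of all genera were called in either direction. At an unadjusted edgeR p under 0.05 there was 1 before DSS, Mucispirillum, and 0 in the other 2. DESeq2 and limma voom likewise called none before DSS or over DSS in the PBS arm, but both called Akkermansia in the interaction (adjusted p = 0.0197 and 0.00193), where it had no count in 3 of the 4 groups. In edgeR the SE of Akkermansia in the interaction was 26150 on the log2 scale, so the lack of a call there decides nothing.

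**Figure D1:**
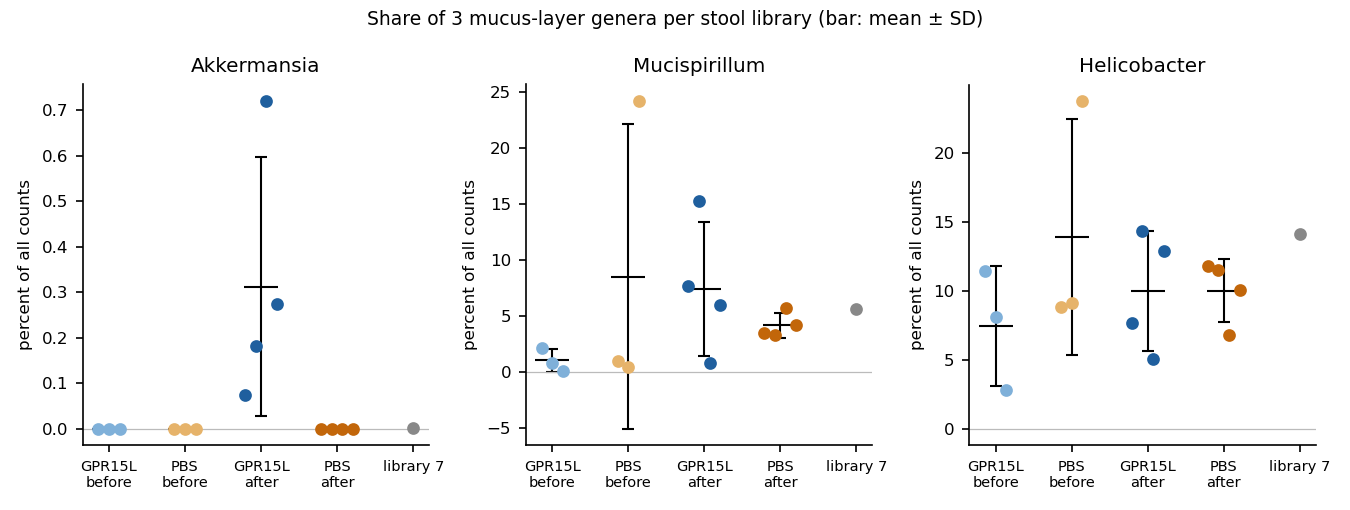
Share of Akkermansia, Mucispirillum and Helicobacter in each stool library (points, percent of all counts) by arm and time, with the mean ± SD of each group as a bar; library 7 is shown apart. Akkermansia is above 0 in the 4 GPR15L libraries after DSS, at 0 in the other 10 libraries compared and at 0.00179% in library 7, while library 6 holds the highest shares of Mucispirillum and Helicobacter (24.2% and 23.8%).

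Mucispirillum was present in all 15 libraries, over a range of more than 100-fold, and no difference between groups passed the test. Before DSS it made up 2.18%, 0.840% and 0.150% in libraries 1 to 3 of the GPR15L arm, and 0.987%, 0.426% and 24.2% in libraries 4 to 6 of the PBS arm. After DSS it made up 7.68%, 15.2%, 0.797% and 6.00% in libraries 8 to 11 of the GPR15L arm, and 3.52%, 3.28%, 5.75% and 4.24% in libraries 12 to 15 of the PBS arm. The groups overlapped in each of the 4 comparisons. The PBS libraries after DSS were the most alike (4.20% ± 1.12, SD, n = 4), and their lowest value lay above all libraries before DSS except library 6. Library 7 held Mucispirillum at 5.62%, within the range of the PBS libraries both before and after DSS.

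Fitted log2 fold changes of Mucispirillum were 0.58 ± 1.05 (SE) between the arms after DSS, -2.81 ± 1.29 before DSS, -1.04 ± 1.12 over DSS in the PBS arm and 2.36 ± 1.23 over DSS in the GPR15L arm, with edgeR adjusted p of 0.865, 0.274, 0.606 and 0.192. Over DSS in the PBS arm the difference of mean log2 shares had the opposite sign, 0.91 (exact permutation p = 0.514, n = 4 and 3). Both negative signs turned without library 6: then the fitted values became 1.20 before DSS and 2.97 over DSS in the PBS arm (edgeR adjusted p = 0.569 and 0.0578; under the other alternatives 0.109 to 0.757 and 0.285 to 0.709), and the mean of the PBS arm before DSS went from 8.54% to 0.707%. limma voom put the change in the PBS arm at 1.08 (adjusted p = 0.541). The mean of the GPR15L arm went from 1.06% to 0.495% without library 1 before DSS, and from 7.43% to 4.83% without library 9 after DSS.

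Nearly all of Mucispirillum was variant 1, which held 97.9% to 100% of the genus in every library. Variant 2 had 2 to 37 counts in 10 of the 14 libraries compared and none in the other 4, and made up at most 0.0256% of a library. Variant 3 had 2 counts, in library 2.

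Helicobacter was the most abundant of the 3 genera in 12 of the 14 libraries compared, and no difference in its total between groups passed the test. It made up 11.5%, 8.14% and 2.83% in libraries 1 to 3, and 8.86%, 9.08% and 23.8% in libraries 4 to 6. After DSS it made up 7.68%, 14.4%, 5.06% and 12.9% in libraries 8 to 11, and 11.8%, 11.5%, 6.77% and 10.0% in libraries 12 to 15. The group ranges overlapped in all 4 comparisons. Fitted log2 fold changes lay between -0.56 ± 0.71 (SE, before DSS) and 0.16 ± 0.67 (over DSS in the GPR15L arm), with edgeR adjusted p from 0.725 to 1.00 over the 4 comparisons and 0.910 for the interaction; under TMM scaling the sign turned in the GPR15L arm (-0.0029) and between the arms after DSS (0.020). Without library 6 the mean of the PBS arm before DSS went from 13.9% to 8.97%.

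The variants within this total differed in balance between the times and arms. Variants 1 to 4 each reached 0.1% of at least 1 library, and variants 5, 6 and 7 had 4, 3 and 3 counts in 1 library each. Variant 1 made up most of the genus in 5 of the 6 libraries before DSS, and variant 2 in 7 of the 8 libraries after DSS. Library 1 held mostly variant 3 (70.3% of its Helicobacter), and in library 9 variant 2 was the largest at 45.9%.

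Of the 11 variants, 7 passed the filter on low counts (at least 10 counts in all and 1 count in 3 or more libraries): the Akkermansia variant, Mucispirillum variants 1 and 2 and Helicobacter variants 1 to 4. The Akkermansia variant and Helicobacter variant 4 passed it only because of the GPR15L libraries after DSS, so the counts that follow only describe. After DSS 2 of the 7, Helicobacter variant 1 and the Akkermansia variant, were called higher with GPR15L, where 10.6% of all 282 variants were called higher and 28% in either direction. Over DSS 1 was called lower in the PBS arm (2.48% of all lower, 4.26% in either direction) and 1 higher in the GPR15L arm (8.87% of all higher, 28.4% in either direction). Before DSS edgeR called 0 (1.77% in either direction), with 2 at an unadjusted edgeR p under 0.05, Mucispirillum variant 1 and Helicobacter variant 1 (0.0387 and 0.0276). After adjustment DESeq2 and limma voom called 0 there too; limma voom had 1 at an unadjusted p under 0.05, Helicobacter variant 1 (0.0236), and DESeq2 0, with the p of 2 of the 7 missing, that of Helicobacter variant 1 included. The interaction called Helicobacter variant 1 alone (3.55% of all higher, 9.93% in either direction). For the Akkermansia variant the SE of the interaction was 23396 on the log2 scale, so the lack of a call decides nothing.

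Among the Helicobacter variants, only variant 1 had no overlap between the arms as a percent of all counts. It made up 1.77%, 4.56% and 1.62% of all counts in libraries 1 to 3 and 6.06%, 5.21% and 15.8% in libraries 4 to 6. After DSS it made up 0.596%, 1.76%, 0.616% and 0.972% in the GPR15L arm (386 to 1206 counts), and 0.181%, 0.0859%, 0.105% and 0.0639% in the PBS arm (40 to 96 counts). All PBS libraries lay above all GPR15L libraries before DSS, and all lay below them after DSS.

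After DSS variant 1 was higher in the GPR15L arm, at 0.985% ± 0.543 against 0.109% ± 0.0508 (SD, n = 4 each), 9.05-fold by the means (log2 fold change 3.36 ± 0.79 SE, edgeR adjusted p = 0.00921 over 282 variants). Over DSS it fell in the PBS arm, from 9.01% ± 5.86 (n = 3; 5.63% without library 6) to 0.109%, 82.8-fold by the means (log2 fold change -6.81 ± 0.94 SE, edgeR adjusted p = 0.000197). In the GPR15L arm it went from 2.65% ± 1.65 (n = 3; 1.70% without library 2) to 0.985%, which did not pass (log2 fold change -1.34 ± 0.78 SE, edgeR adjusted p = 0.179). Library 9 (1.76%) lay above library 3 (1.62%). The 2 changes over DSS differed from each other (interaction 5.46 ± 1.18 SE on the log2 scale, edgeR adjusted p = 0.00802). The difference before DSS, where GPR15L was the lower arm, did not pass (log2 fold change -2.10 ± 0.87 SE, edgeR adjusted p = 0.268).

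These 3 calls held in edgeR under each other scaling and count filter and without any single library, and in limma voom, with adjusted p of at most 0.0356 (after DSS), 0.00210 (PBS arm) and 0.0346 (interaction). DESeq2 set the p of variant 1 to missing for an extreme count and put the same log2 values at 3.45 ± 0.89, -7.85 ± 0.96 and 6.45 ± 1.35 (SE). Library 7 held variant 1 at 10.04%, within the range of the PBS libraries before DSS, where the PBS libraries after DSS held at most 0.181%. With that library as titled none of the 3 calls remained: the log2 values were -0.99, -2.46 and 1.12, with edgeR adjusted p of 0.704, 0.317 and 1.00.

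**Figure D2:**
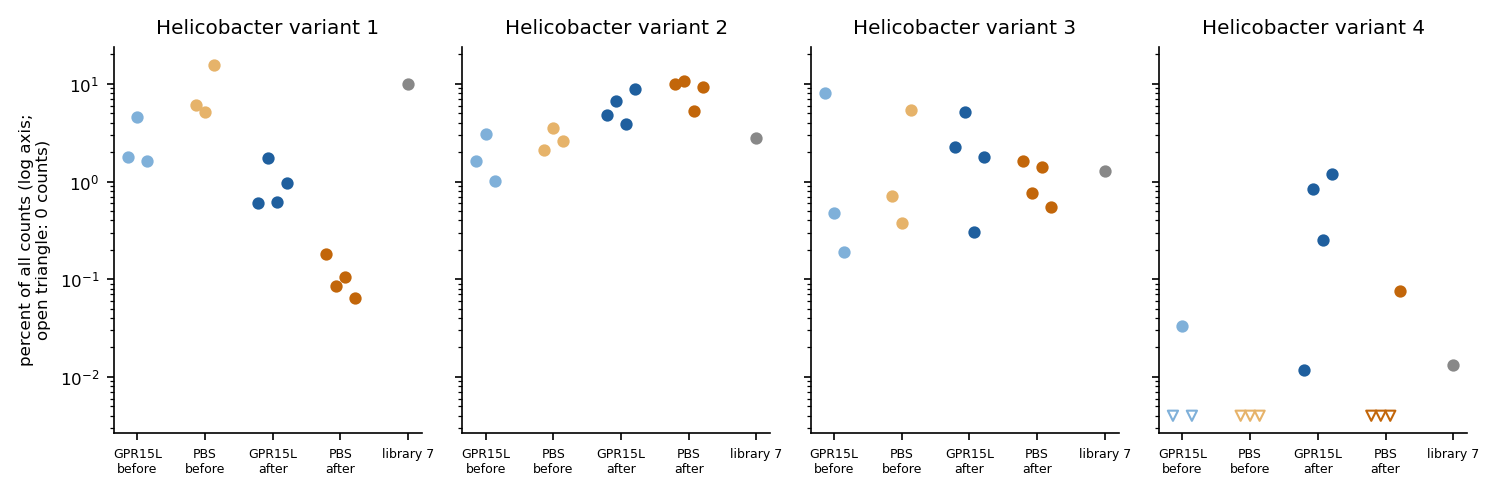
Share of Helicobacter variants 1 to 4 in each library (percent of all counts, log axis; open triangles mark 0 counts) by arm and time. Variant 1 is lowest in the 4 PBS libraries after DSS (0.0639% to 0.181%), variant 2 is higher after DSS than before in both arms, and variant 4 has counts in all 4 GPR15L libraries after DSS.

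Variant 2 had the opposite order of times. It made up 1.63%, 3.07% and 1.02% in libraries 1 to 3 and 2.09%, 3.50% and 2.63% in libraries 4 to 6, and after DSS 4.81%, 6.60%, 3.89% and 8.94% in the GPR15L arm and 9.96%, 10.7%, 5.27% and 9.35% in the PBS arm. In each arm every library after DSS lay above every library before DSS, by 3.18-fold (GPR15L) and 3.22-fold (PBS) in the means. The fitted differences did not pass: 1.83 ± 0.73 (SE) on the log2 scale in the GPR15L arm (edgeR adjusted p = 0.0673, between 0.0361 and 0.237 under the alternatives) and 1.51 ± 0.72 in the PBS arm (edgeR adjusted p = 0.166). Nor did the differences between the arms after DSS (-0.29 ± 0.64 SE on the log2 scale, edgeR adjusted p = 0.874) or before (-0.61 ± 0.74 SE, adjusted p = 0.790). Library 7 held variant 2 at 2.77%, within the range before DSS.

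The groups overlapped in all 4 comparisons of variant 3. It made up 8.07%, 0.476% and 0.191% in libraries 1 to 3, 0.713%, 0.373% and 5.41% in libraries 4 to 6, 2.27%, 5.17%, 0.303% and 1.77% in libraries 8 to 11, and 1.63%, 0.763%, 1.40% and 0.551% in libraries 12 to 15. The group means rested on 1 library each before DSS: they went from 2.91% to 0.334% without library 1 and from 2.17% to 0.543% without library 6. After DSS the mean of the GPR15L arm went from 2.38% to 1.45% without library 9. No comparison of variant 3 passed the test. Library 7 held variant 3 at 1.29%, within the range of the PBS libraries both before and after DSS.

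Variant 4 was rare and mostly seen with GPR15L after DSS. It had 17, 579, 158 and 638 counts in libraries 8 to 11 (0.0118%, 0.844%, 0.252% and 1.19%), 23 counts in library 2 (0.0335%), 47 counts in library 15 (0.0751%) and none in the other 8 libraries compared. Library 7 held 22 counts (0.0131%), a larger share than library 8. The mean of variant 4 after DSS was 0.576% ± 0.541 in the GPR15L arm (0.369% without library 11) and 0.0188% ± 0.0375 in the PBS arm (SD, n = 4 each), and the arms overlapped, since library 8 lay below library 15. Variant 4 passed the filter on low counts only because of the GPR15L libraries after DSS. Its p-values are therefore given as a description and not as support. The difference between the arms did not pass (log2 fold change 5.29 ± 2.40 SE, edgeR adjusted p = 0.104), nor did that over DSS in the GPR15L arm (6.16 ± 2.85 SE, edgeR adjusted p = 0.105). Without library 15 every PBS library after DSS was at 0, so that the fit gives no measured fold; the edgeR adjusted p was then 0.0356 (between 0.00485 and 0.252 under the other alternatives).

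As shares of the genus, variants 1 and 2 ran in opposite directions. Shares of 1 genus depend on each other, since a fall of 1 variant raises the share of the others. The directions are therefore not separate results. Variant 1 made up 15.5%, 56.0% and 57.2% of Helicobacter in libraries 1 to 3 and 68.4%, 57.3% and 66.2% in libraries 4 to 6. After DSS it made up 7.75%, 12.2%, 12.2% and 7.55% in the GPR15L arm and 1.54%, 0.746%, 1.55% and 0.636% in the PBS arm. Neither arm's values after DSS overlapped with those of the other arm or with those before DSS. A two-sided exact permutation test of the mean percent gave p = 0.0286, the smallest possible here, between the arms after DSS (9.92% ± 2.63 against 1.12% ± 0.493, SD, n = 4 each), over DSS in the PBS arm and over DSS in the GPR15L arm, and 0.0762 after adjustment over 8 tests of make-up.

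Variant 2 made up 29.3% ± 13.1 of the genus before and 63.7% ± 13.2 after DSS in the GPR15L arm, and 24.4% ± 13.8 and 87.0% ± 7.28 in the PBS arm (SD, n = 3 before and 4 after). The exact permutation p was 0.0571 in the GPR15L arm, 0.0286 in the PBS arm and 0.0286 between the arms after DSS, each 0.171 after adjustment over 12 tests of variants 2 to 4, which were added after the data were seen. Library 7, with 71.1% variant 1 and 19.6% variant 2, lay just above the range of the PBS libraries before DSS for variant 1 (57.3% to 68.4%) and within it for variant 2 (11.0% to 38.6%). With it as titled, the difference in variant 1's percent of the genus was -5.20 for GPR15L minus PBS after DSS (exact permutation p = 1.00) and -48.9 for after minus before DSS in the PBS arm (exact permutation p = 0.143).

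**Figure D3:**
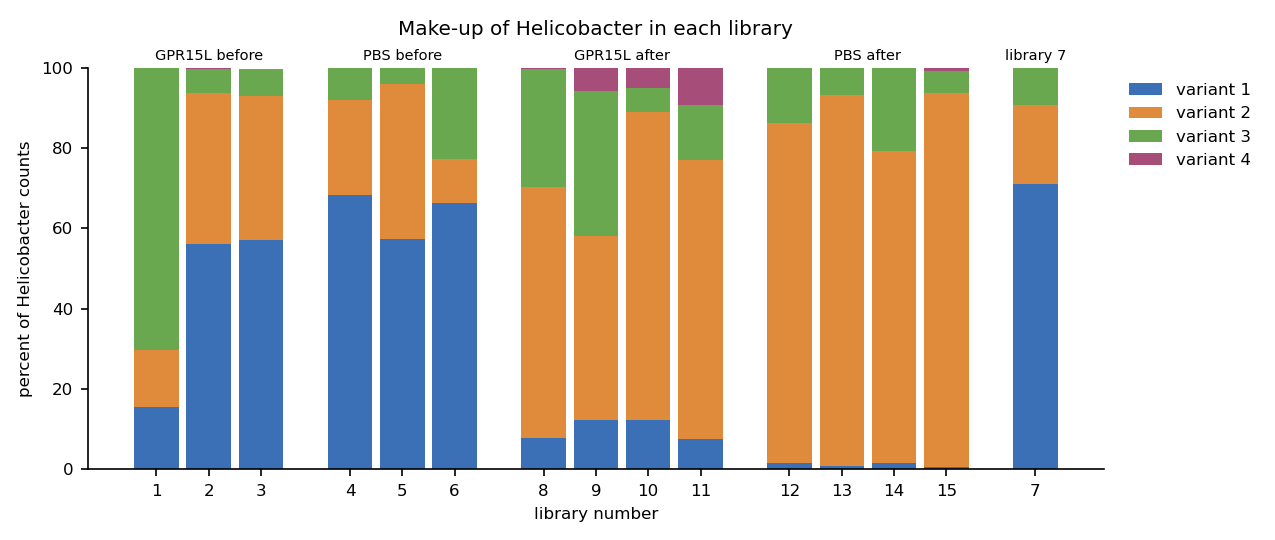
Make-up of Helicobacter in each library, as stacked bars of the percent of Helicobacter counts that belonged to variants 1 to 4, ordered by group with library 7 at the end. Variant 1 is between 15.5% and 68.4% before DSS, between 7.55% and 12.2% in the GPR15L arm after DSS and at most 1.55% in the PBS arm after DSS.

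Mucispirillum and Helicobacter varied together between libraries. Over the 14 libraries their log2(percent + 0.01) correlated with Pearson's r = 0.773 (permutation p = 0.00102, adjusted over 7 pairs 0.00357) and Spearman's rho = 0.626 (permutation p = 0.0193, adjusted 0.045), and without libraries 3 and 5, which lay farthest from the median of Mucispirillum, r was 0.692 (permutation p = 0.0125, adjusted 0.0482) and rho 0.573 (permutation p = 0.0559, adjusted 0.13). The rank correlation thus did not pass without these libraries. Within the 6 libraries before DSS r was 0.925 and rho 0.829 (exact permutation p = 0.025 and 0.0583), and within the 8 after DSS 0.638 and 0.476 (exact permutation p = 0.086 and 0.243); none of these 4 passed the adjustment over 7 pairs (0.0875 to 0.34). Shares of 1 total depend on each other. With centred log ratios, which set each genus against all others of its library, r was 0.824 (permutation p = 0.00023) and rho 0.741. Their centre is a mean over all genera or all variants, those at 0 included, after 0.5 is added to each count. All 7 pairs gave a higher r with it than on log shares, so the higher r is no separate support. A relation with Akkermansia was not tested, since it was at 0 in 10 of the 14 libraries. Of the 4 with counts, library 10 held the most Akkermansia (0.721%) and the least Mucispirillum and Helicobacter (0.797% and 5.06%).

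Helicobacter variants 1 to 3 were each set against Mucispirillum, and variant 4, at 0 in 8 of the 14 libraries, was not. For variant 3, over 14 libraries r was 0.794 and rho 0.798 (permutation p = 0.00085 and 0.00098, adjusted 0.00357 and 0.00686), and without libraries 3 and 5 r was 0.691 and rho 0.685 (permutation p = 0.0138 and 0.0172), of which r passed the adjustment (0.0482) and rho did not (0.12). With centred log ratios r was 0.850. Before DSS (n = 6) r was 0.843 and rho 0.943 (exact permutation p = 0.0167 for both, adjusted 0.0875 and 0.117), and after DSS (n = 8) r was 0.903 and rho 0.881 (exact permutation p = 0.00342 and 0.00724, adjusted 0.024 and 0.0507). The relation had the same sign at both times, and with library 7 included r was 0.789. The ratio of Mucispirillum counts to variant 3 counts was 0.271 in library 1, between 0.783 and 4.47 in the other 5 libraries before DSS and between 2.16 and 7.69 after DSS. In library 7 this ratio was 4.35. These pairs with single variants were added after the data were seen, and differences between the correlations were not tested.

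With variants 1 and 2 the relation did not pass the adjustment on log shares. Mucispirillum gave r = -0.155 and rho = -0.147 with variant 1 (permutation p = 0.593 and 0.614) and r = 0.539 and rho = 0.424 with variant 2 (permutation p = 0.047 and 0.132, adjusted 0.0823 and 0.23). With centred log ratios the latter was r = 0.804 (permutation p = 0.00053, adjusted 0.00124). Variants 1 and 2 ran against each other over all libraries (r = -0.663, rho = -0.745, permutation p = 0.0105 and 0.00341, adjusted 0.0245 and 0.0119), but r was 0.693 within the libraries before DSS and -0.403 within those after DSS (exact permutation p = 0.126 and 0.312), and -0.236 with centred log ratios. The pooled value thus did not hold within the times. On log shares variant 3 gave no relation past the test with variant 1 (r = 0.139, rho = 0.108, permutation p = 0.634 and 0.719) or variant 2 (r = 0.121, rho = 0.125, permutation p = 0.678 and 0.669). With centred log ratios variants 2 and 3 gave r = 0.525 and rho = 0.670 (permutation p = 0.053 and 0.011, adjusted 0.0927 and 0.0192), of which rho passed. Variants 1 and 3 then gave r = 0.398 and rho = 0.086 (permutation p = 0.161 and 0.775).

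**Figure D4:**
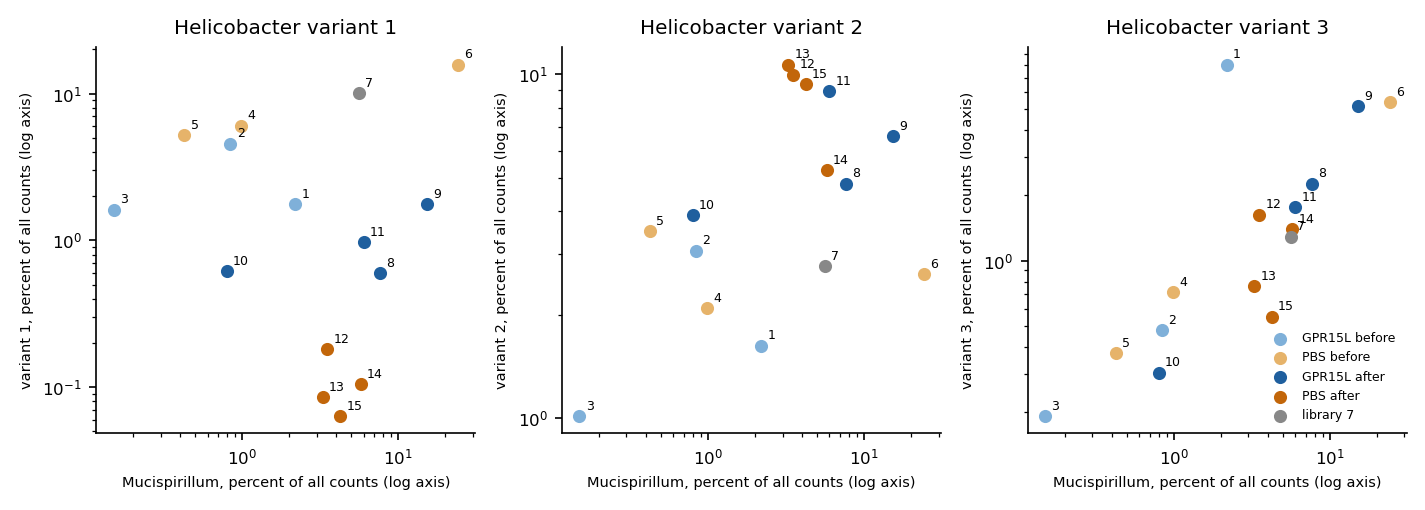
Share of Helicobacter variants 1, 2 and 3 against the share of Mucispirillum in the same library (percent of all counts, both axes log), with points coloured by group and marked with the library number. Variant 3 rises with Mucispirillum before and after DSS (r = 0.843 and 0.903), with library 1 above the other points, while the points of variants 1 and 2 lie mostly apart by time.

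As a description, with shares that depend on depth and on each other, the pattern of each genus over the 14 libraries was set against those of all other genera or lowest named ranks. Akkermansia was most like Parasutterella (Spearman's rho 0.924, over 10 libraries tied at 0 and 4 with counts), a commensal of the Proteobacteria, then Muribaculum (0.628) and Longibaculum (0.616). Mucispirillum was most like Puniceicoccaceae (0.898), then Mitochondria (0.719) and Rickettsiales (0.701). Helicobacter was most like Mucispirillum (0.626), then Blautia and Lachnoclostridium (0.499 each).

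Sequences of mitochondria, chloroplasts or eukaryotes, or with no phylum named, were counted together and were mostly of mitochondria. Mitochondria alone had a Spearman's rho of 0.719 with Mucispirillum. Together these sequences made up 0.00101% to 0.0553% of counts in the GPR15L arm before DSS. In the PBS arm before DSS they made up 0.0491% to 1.36%, with the highest value in library 6. After DSS they made up 0.202% to 0.638% with GPR15L and 0.160% to 0.724% with PBS. Their sum did not rise with Mucispirillum in every library. Library 1 held the lowest sum (0.00101%) and the most Mucispirillum of its group (2.18%). Their part in the results was not tested.

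A list of other genera linked to mucin or to sulfur compounds was also tested, and edgeR called none of them. Of 9 names, 7 had counts and were tested (Bacteroides, Parabacteroides, Muribaculum, Alistipes, Bifidobacterium, Desulfovibrio and Bilophila), and edgeR called 0 higher and 0 lower in each of the 5 comparisons. At an unadjusted edgeR p under 0.05 there was Muribaculum, higher with GPR15L after DSS (log2 fold change 2.28 ± 0.79 SE, unadjusted p = 0.0108, adjusted 0.0561) and before (2.09 ± 0.90 SE, unadjusted p = 0.0348, adjusted 0.267), and Bifidobacterium, which had no count after DSS, over DSS in both arms (unadjusted p = 0.0474 in PBS and 0.0118 in GPR15L). DESeq2 called 1 of them, Muribaculum between the arms after DSS, where it called 16 of all 78 genera, and limma voom 1, Bifidobacterium over DSS in the GPR15L arm, where it called 14 of 78. The median log2 fold change of the 7 was 0.31 between the arms after DSS, 0.40 before DSS, -0.90 over DSS in the PBS arm and 0.17 in the GPR15L arm, where the median of all 78 genera was 0, -0.54, -0.56 and 0. Bacteroides, which breaks down mucin sugars as well as plant fibre, made up 6.82% to 37.5% of the libraries after DSS and 6.00% to 31.3% before. Alistipes had means of 1.72% and 4.36% before and 0.738% and 1.98% after DSS, and Parabacteroides 1.65% and 1.46% before and 0.576% and 0.667% after, in the GPR15L and PBS arms (n = 3 each before and 4 each after). Muribaculum reached 1.42% ± 0.418 (SD, n = 4) with GPR15L after DSS and lay at 0.359% ± 0.260 with PBS.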

How the data were processed

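Per the labels' protocols, DNA from stool (QIAamp kit) went through 25 PCR cycles for the 16S rRNA gene's V4 region and was read on a MiSeq. The authors deposited raw counts of reads for each variant, with its taxonomy, and the table's name gives DADA2 as the tool. Not given in the sources used here are the version of DADA2, how reads were filtered and which taxonomy database was used. Per the submitters' processing notes, R 4.5.1 and limma were used, with no role stated. The table names no sequence for a variant, so none is shown.

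Of 3697 table rows, 3190 were at 0 throughout, 97 of them with one of the 3 genus names. Counts per variant and summed per genus (or lowest named rank) were fitted over 14 libraries in edgeR 4.0.16 (R 4.3.3): 1 mean per group, TMMwsp scaling, quasi-likelihood test, Benjamini-Hochberg adjustment at 0.05, features with at least 10 counts in all and 1 count in 3 or more libraries (282 variants, 78 genera). The SE beside a log2 value is its size over the square root of F. Shares, make-up and relations between libraries were tested by permutation (100000 resamples, exact below 10 values); 3 against 3 libraries cannot give a p below 0.1. Make-up used libraries with at least 100 counts of the genus. Every variant reaching 0.1% of a library was described singly, and for each genus the 3 most alike by Spearman's rho were named. By the mouse numbers each mouse gave 1 library, and p-values take no account of shared cages or of a mouse sampled at both times.

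The alternatives tried were scaling by TMM or by total counts only, DESeq2 1.42.0, voom of limma 3.58.1, a filter at 0.1% or none, the 2 groups fitted alone, library 7 as titled, pseudocounts of 0.1 and 0.001, centred log ratios and each library left out. The genera, lists and tests were chosen with earlier results of these data known. On simulated data with the spread of the real counts, the test of the arms after DSS recovered 40.5% of 28 variants changed 64-fold among 282, with 2.16% of calls false.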

Additional observations from a re-analysis of the deposited data

Results flagged for a closer look

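Helicobacter variant 4 in library 15 (PBS after DSS) stood apart from its group, at 0.0751% of counts (47 counts) where libraries 12 to 14 had none. It was the 1 value to do so among 17 groups of 4 libraries examined. With libraries 12 to 14 at 0, a value of any size above 0 would have been marked. The mark therefore only describes, and the rate of about 1 group in 20 marked by chance does not apply to it.

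The change of Helicobacter variant 1 over DSS differed between the arms, by 5.46 on the log2 scale (edgeR adjusted p = 0.00802). With library 7 as titled this was 1.12 (edgeR adjusted p = 1.00); under the other alternatives the adjusted p lay between 0.00332 and 0.0346.

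Library 7, which was left out of the comparisons unless stated, held Helicobacter at 14.1%, above the highest PBS library after DSS (11.8%), and Helicobacter variant 1 at 10.04%, where the highest PBS library after DSS held 0.181%. The PBS libraries before DSS held variant 1 at 5.21% to 15.8%. The shares of Mucispirillum (5.62%) and Helicobacter variant 3 (1.29%) in library 7 lay within the range of the PBS libraries at both times.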

How the results depend on the processing

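No paired analysis was possible because none of the mouse numbers, 1 to 15, occurs at both times. Of 588 alternative values of 48 results, 492 kept their direction and their side of the threshold (or stayed within the spread), 32 lost a call, 9 gained one, 41 turned sign and 14 counts moved. The cause was not tested unless stated. Depth limits the rare variants: a count of 0 in the PBS arm after DSS allows a share of up to 0.00128%.

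The median change of the 78 genera (log2) moved with the scaling. As fitted, under TMM and under scaling by total counts alone it was -0.54, -0.49 and -1.13 before DSS, -0.56, -0.99 and -0.75 over DSS in the PBS arm, and 0, 0 and 0.24 over DSS in the GPR15L arm. None of the signs of Akkermansia or Helicobacter variant 1 turned with a scaling.

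The total of Helicobacter, never past the threshold, had no stable sign. Between the arms after DSS its log2 fold change was 0.020 with TMM, 0.12 with DESeq2, 0.27 with the 2 groups fitted alone, 0.032 with library 7 as titled, and between -0.46 and 0.13 with a library left out. Without a count filter it was 0.21 before DSS, -0.61 over DSS in the GPR15L arm and -0.26 in the interaction. Over DSS in the GPR15L arm it was -0.0029 with TMM and -0.39 with the 2 groups fitted alone. With a library left out it ranged from -0.98 to 0.22 before DSS, between -1.04 and 0.42 in the PBS arm, from -0.25 to 0.58 in the GPR15L arm and from -0.26 to 0.94 in the interaction. Mucispirillum ranged from -4.01 to 1.20 before DSS, between -1.95 and 2.97 in the PBS arm (1.08 with limma voom) and from -0.62 to 4.60 in the interaction; each upper or lower end of the opposite sign came without library 6. As differences of mean log2 shares, Mucispirillum ranged from -0.30 to 1.12 between the arms after DSS, between -2.88 and 0.019 before DSS, and between -0.26 and 2.64 in the PBS arm, and Helicobacter from -0.30 to 0.20 after DSS, between -0.58 and 0.13 in the PBS arm and from -0.069 to 0.94 in the GPR15L arm.

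The rise of Akkermansia over DSS in the GPR15L arm lost its call without any of its 7 libraries (fitted log2 values of 10.49 to 11.88, which against a group at 0 depend on the prior count and measure no fold); as a share it was 4.05 to 5.09 on the log2 scale and missed the threshold, since fewer libraries cannot give a p below it (0.0667 to 0.1), and with a pseudocount of 0.1 it was 1.81 (exact permutation p = 0.0571).

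With library 7 as titled, Helicobacter variant 1 gave -0.99 between the arms after DSS, and its percent of the genus differed by -5.20 between the arms and by -48.9 over DSS in the PBS arm. With a library left out that percent differed by -66.2 to -60.7 in the PBS arm and by -46.7 to -25.8 in the GPR15L arm, again below the number of libraries that could pass. Variant 2 turned to 0.17 between the arms after DSS with the 2 groups fitted alone, and ranged from -0.0070 to 1.82 in the PBS arm. Mucispirillum variant 1's percent of its genus, near 100% throughout, ranged from -0.107 to 0.0720 between the arms after DSS, from -0.262 to 0.268 before DSS (-0.530 with at least 20 counts of the genus), between -0.227 and 0.303 in the PBS arm and from -0.0294 to 0.0753 in the GPR15L arm.

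The number of member variants past the threshold was 1 instead of 2 after DSS with a filter at 0.1%, which drops Akkermansia, with library 7 as titled or with DESeq2 (the p of 2 of the 7 missing), and 3 with limma voom, which added Helicobacter variant 4 and called 99 of all 282 variants. In the GPR15L arm it was 3 instead of 1 with limma voom, where 109 of 282 were called, 2 without a count filter, 3 with the 2 groups fitted alone, and 0 to 1 with a library left out (0 without library 2, 3 or 10). In the PBS arm it was 2 instead of 1 without a count filter, 0 with library 7 as titled and 0 with DESeq2, where the p of Helicobacter variant 1 was missing. In the interaction it was 2 instead of 1 with limma voom or without a count filter, 0 with library 7 as titled and 1 to 2 with a library left out (2 without library 4). DESeq2 called 1 in the interaction as well, but this was the Akkermansia variant, and the p of Helicobacter variant 1 was missing.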
